A study of Mus musculus with 8 samples.

Results

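Livers of mice given diethylnitrosamine (DEN) and carbon tetrachloride (CCl4), called the model group, were compared with livers of control mice. The genes compared were the 11606, of 17164 in the deposited table, with at least 1 FPKM, a read level corrected for gene length and sequencing depth, in at least 2 of the 8 libraries of the study. All mice were male C57BL/6 animals that entered the study at 2 weeks of age, in 4 groups of 6, and were killed at 22 weeks. RNA of 2 randomly chosen livers per group was sequenced, so each side of the comparison holds 2 libraries from separate animals (n = 2 per group throughout). Control mice received normal saline in place of DEN, and whether they were given the olive oil vehicle is not given in the sources used here. Model mice received DEN (0.67%) into the peritoneum at 2 weeks and CCl4 (20% in olive oil) by the same route, 2 times a week, from 8 weeks to the end. Mice of groups DWYG-M and DWYG-H had both agents too and, from 17 weeks, Diwu Yanggan capsules at 1 or 2 clinical equivalent doses. Their 4 libraries entered the fit only to share its estimate of spread, and are given below as ranges. The labels give the tissue as liver, and do not say whether nodules or surrounding tissue were taken.

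DEN and CCl4 are both turned into reactive products by cytochrome P450 enzymes of hepatocytes. DEN alkylates DNA and starts tumours, and repeated CCl4 kills hepatocytes around the central veins, which brings regeneration, inflammation and scarring. Adult hepatocytes spend much of their transcription on secreted proteins and on nitrogen, lipid and steroid metabolism, and the liver of male mice also secretes major urinary proteins, the pheromone carriers encoded by the Mup genes.

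Total counts ran from 17345627 to 19191382 per library, and the replicates correlated across genes at r = 0.984 in control and 0.961 in model. Fold changes are log2 values, model against control, from edgeR's quasi-likelihood test with TMM scaling, in which the median tested gene stood at −0.01. On values per length the median gene stood higher in model, by 0.21 on log2(FPKM + 1) and by 0.50 on log2(TPM + 1), so printed FPKM values stand further apart for rises, and closer for falls, than the fold changes beside them. Pairs of values are in the order replicate 1, replicate 2. A gene is said to have risen or fallen only where its adjusted p was under 0.05, and p-values measure only the spread between these 8 livers. Of all calls, 663 (551 higher, 112 lower) held when each of the 4 control and model libraries was left out in turn. A named call is among them unless the text says which libraries it was dependent on, with the highest adjusted p that leaving out one of them gave. Most genes named with values are calls (143 of 151), so counts and medians, not the genes named, describe a list. For a list, leave-out counts are its rises or falls without control replicate 1, control replicate 2, model replicate 1 and model replicate 2, in that order. RNA of mixed tissue cannot tell fewer cells of a type from less RNA per cell.

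The 4 marker genes of the comparison separated the groups with no overlap. Gpc3, Afp and Cyp2a4 were under 1 FPKM in both control libraries and passed the filter through the model or DWYG libraries. Their gap therefore follows in part from how they entered. Hsd3b5, a ketosteroid reductase of adult male liver, had an FPKM of 241 and 171 in the control libraries and 0.86 and 0.45 in the model libraries, and fell by 8.57 (SE 0.34, adjusted p = 8.12e-05). Gpc3, a fetal cell-surface proteoglycan that returns in liver tumours, stood at 0.54 and 0.18 FPKM in control and 105 and 127 in model and rose by 8.07 (SE 0.55, adjusted p = 0.000394). Afp, the fetal plasma protein alpha-fetoprotein, went from 0.28 and 0.23 to 143 and 579 FPKM and rose by 10.24 (SE 0.99, adjusted p = 0.000972). Cyp2a4, a steroid hydroxylase that is more abundant in female mouse liver, had 0.04 and 0 FPKM in control and 548 and 1074 in model. Its control libraries held 1 read in all, which gives a ratio of 33500 with an exact 95% counting interval of 6010 to 1320000, and its adjusted p was 0.000394. The DWYG libraries lay between the groups for Hsd3b5 (3.34 to 16 FPKM) and Gpc3 (38.2 to 72.5), while for Afp (111 to 217) and Cyp2a4 (223 to 563) they ran into the range of the model libraries.

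**Figure D1:**
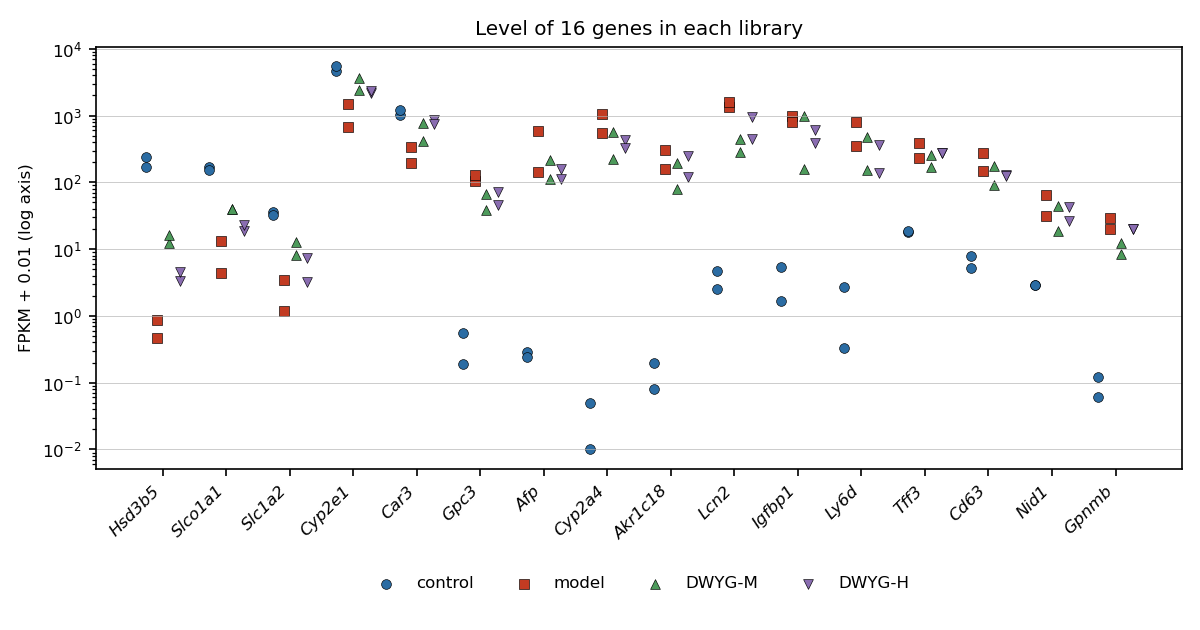
FPKM + 0.01 (log axis) of 16 genes in each of the 8 libraries, 2 points per group. The 5 genes at the left stood lower in both model libraries than in both control libraries, and the other 11 stood higher, with Cyp2a4 at 0.04 and 0 FPKM in control.

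The value of Cyp2a4 rests on how reads were shared with Cyp2a5, a coumarin hydroxylase and its near copy on the same chromosome. In GENCODE vM21 (GRCm38, a build older than the GRCm39 of the counts) Cyp2a4 lies at chr7:26307169-26315088 and Cyp2a5 at chr7:26835305-26843528, both on the plus strand. Their coding sequences, each of 1482 bases without the stop codon, differ at 23 positions (98.4% identity), and the longest run they share has 216 bases. The 150 coding bases with the most differences, 592 to 741 from the start codon, are printed. Within the coding sequence, only reads over differing bases can tell the copies apart. Untranslated regions were not compared. Capitals mark the 7 bases that differ.
Cyp2a4: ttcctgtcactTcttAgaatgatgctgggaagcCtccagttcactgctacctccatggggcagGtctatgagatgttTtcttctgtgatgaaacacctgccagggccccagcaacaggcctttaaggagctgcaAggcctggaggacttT
Cyp2a5: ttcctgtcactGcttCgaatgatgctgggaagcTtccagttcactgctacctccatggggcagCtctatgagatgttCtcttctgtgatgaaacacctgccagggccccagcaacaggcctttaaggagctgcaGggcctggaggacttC
Cyp2a5 had 87.8 and 99.8 FPKM in control and 366 and 201 in model, a log2 difference of 1.29 (SE 0.41) that did not pass the test (adjusted p = 0.0553). The control libraries hold 2209 and 2406 counts for Cyp2a5 beside 1 in all for Cyp2a4, so nearly all control reads of the pair were given to one copy.

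In the whole comparison 2582 of the 11606 tested genes were called (22.2%), of which 1756 rose (15.1%) and 826 fell (7.12%). The shares of 15.1% and 7.12% are the base for all list counts below. The number called was 1099 without control replicate 1, 812 without control replicate 2, 2845 without model replicate 1 and 1468 without model replicate 2. The share of calls that were rises, 68.0%, was 79.9% when libraries were scaled by totals without Alb and Mup genes, 80.5% when only the 2 groups were fitted, and 91.7%, 92.1% and 97.5% with limma on log2(FPKM + 1), log2(FPKM + 0.1) and log2(TPM + 1). A change of at least 2-fold was called for 1657 genes (14.3%). The 2 model libraries lay above both control libraries in FPKM for 5470 genes (47.1%) and below both for 1384 (11.9%). Remarks in this report that named genes did not overlap between groups are to be read beside these shares. Most named genes were chosen as calls or for small p, which favours such separation. Most tested genes, 9813, reached 1 FPKM in all 4 libraries, and of these 897 rose and 779 fell. A further 857 genes reached 1 FPKM in both model libraries and in neither control library, and 658 of them rose. The opposite class, genes above 1 FPKM in both control libraries and in neither model library, held 31 genes, of which 25 fell. Genes of the 857 passed the filter through the model or DWYG libraries alone, so their direction is set by how they entered. In all, 1112 tested genes were under 1 FPKM in both control libraries and entered through the model or DWYG libraries. Such genes favour a rise, and their number is given below for lists in which they are many.

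**Figure D2:**
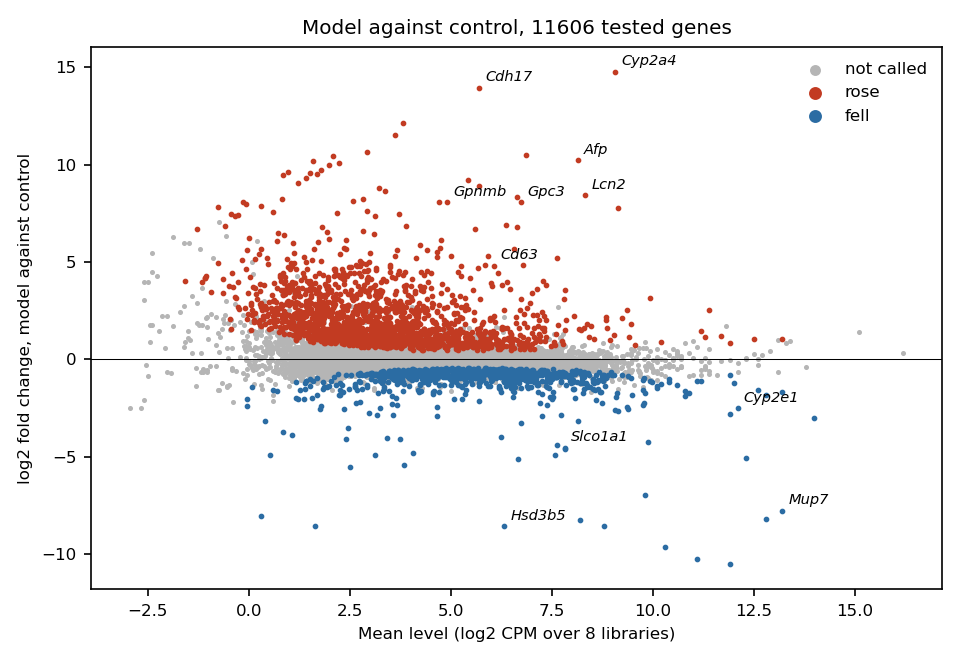
Log2 fold change of model against control (vertical axis) by mean level in log2 CPM (horizontal axis) for each tested gene, with called genes in red (1756 rose) and blue (826 fell). Genes that rose spread over low and middle levels, and the largest falls among abundant genes include Mup7.

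Among the 12 called genes with the largest gains in fold whose mean level reached 20 FPKM in a group, several are hardly read in control liver. Cdh17, the liver-intestine cadherin, had no control read and 24.9 and 48.2 FPKM in model, and was at least 1120-fold higher (against a floor of 3 counts over the control group, adjusted p = 0.00108). Csn3, kappa-casein of milk, likewise had no control read, 24.4 and 51.5 FPKM in model, and was at least 208-fold higher (adjusted p = 0.00485). These genes were chosen for large gains and no overlap between the groups, so the gap between their libraries follows from the choice. Akr1c18, a progesterone-reducing enzyme, went from 0.19 and 0.07 to 159 and 302 FPKM and rose by 10.49 (SE 0.95, adjusted p = 0.000807). Lcn2, an iron-siderophore binding protein of injured epithelium, went from 4.62 and 2.52 to 1329 and 1574 FPKM and rose by 8.42 (SE 0.57, adjusted p = 0.000394). Gpnmb, a lysosomal glycoprotein of lipid-laden macrophages, went from 0.11 and 0.05 to 19.8 and 29.4 FPKM and rose by 8.07 (SE 0.44, adjusted p = 0.000362). For these 3 genes too, with control levels of at most 4.62 FPKM, the gap follows from the choice. Cyp2b9, a cytochrome P450 more abundant in female liver, rose by 8.90 (SE 1.04, adjusted p = 0.00177), from 0.14 and 0.04 to 31.3 and 73.5 FPKM. Klrb1b, a lectin-like receptor best known from natural killer cells, stood at 0.03 and 0.07 FPKM in control and 25.3 and 42.4 in model, a ratio of 628 (exact 95% counting interval 215 to 3050). Erich4, a little-studied glutamate-rich protein, had 0.1 and 0 FPKM in control and 14.8 and 28.7 in model, a ratio of 355 (63.3 to 14000). Of the 12 genes with the largest falls by the same rule, 11 were Mup genes and the other was Hsd3b5.

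Measured in TPM, transcript numbers scaled to the same sum in each library, 34.0% of the transcriptome changed hands between control and model. The 22 Mup genes took 29.6% and 29.3% of TPM in the control libraries and 4.24% and 1.34% in the model libraries, and made up 78.5% of all TPM lost. As few as 4 genes held 50% of the loss, while the gain was spread over 43 genes before it reached 50%. Albumin, the main plasma protein, made up 9.52% of the gain, with 38637 and 29953 FPKM in control and 39625 and 60316 in model, but its log2 difference of 0.30 (SE 0.45) did not pass the test (adjusted p = 0.673), and without model replicate 2 it was −0.15. The 10 most abundant genes of each library took 33.1% and 32.0% of TPM in control and 19.7% and 28.0% in model. Ribosomal protein genes (83) went from 3.53% and 3.49% to 6.03% and 6.16% of TPM, and 13 apolipoprotein genes from 6.64% and 7.37% to 7.58% and 10.5%. Collagen chain genes (41), though small in share, went from 0.0170% and 0.0199% to 0.0482% and 0.0600%. No group of this paragraph overlapped between control and model, and the shares themselves were not tested.

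Secreted plasma proteins led the called gains in TPM. Hpx, the heme carrier hemopexin, stood at 3232 and 3217 FPKM in control and 8067 and 7969.9 in model and rose by 1.05 (SE 0.25, adjusted p = 0.0226). Hp, the hemoglobin carrier haptoglobin, stood at 2364 and 2478 FPKM in control and 6183 and 4483 in model and rose by 0.86 (SE 0.25, adjusted p = 0.0447). C3, the central complement component, stood at 1447 and 1503 FPKM in control and 3775 and 3467 in model and rose by 1.02 (SE 0.26, adjusted p = 0.0286). The groups did not overlap in any of the 3, and no call held in every leave-out: the call of Hpx was dependent on both control libraries and model replicate 2 (highest adjusted p = 0.121), that of C3 dependent on both control libraries and model replicate 2 (highest adjusted p = 0.139) and that of Hp dependent on each of the 4 libraries (highest adjusted p = 0.202). Apoc2, the cofactor of lipoprotein lipase, went from 387 and 354 to 1684 and 3304 FPKM and rose by 2.53 (SE 0.52, adjusted p = 0.013). The call of Apoc2 was dependent on both control libraries (highest adjusted p = 0.0911). Igfbp1, which binds insulin-like growth factors in plasma, went from 5.41 and 1.64 to 997 and 812 FPKM and rose by 7.75 (SE 1.01, adjusted p = 0.00245). On the other side, Fabp1, the fatty acid carrier of the hepatocyte cytosol, went from 14267 and 19121 to 6798 and 5448 FPKM and fell by 1.72 (SE 0.38, adjusted p = 0.0174). The call of Fabp1 was dependent on control replicate 2 and model replicate 2 (highest adjusted p = 0.093). Serpina1e, an antitrypsin copy, went from 10269.6 and 14092 to 3255 and 4856 FPKM and fell by 1.84 (SE 0.36, adjusted p = 0.0114). The call of Serpina1e was dependent on control replicate 2 (highest adjusted p = 0.0702). Mup3, a Mup gene that kept more of its level than most, went from 13960.0 and 12199 to 3669 and 999 FPKM and fell by 2.81 (SE 0.52, adjusted p = 0.00918). Mup copies are nearly identical, so the value of a single copy is uncertain.

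**Figure D3:**
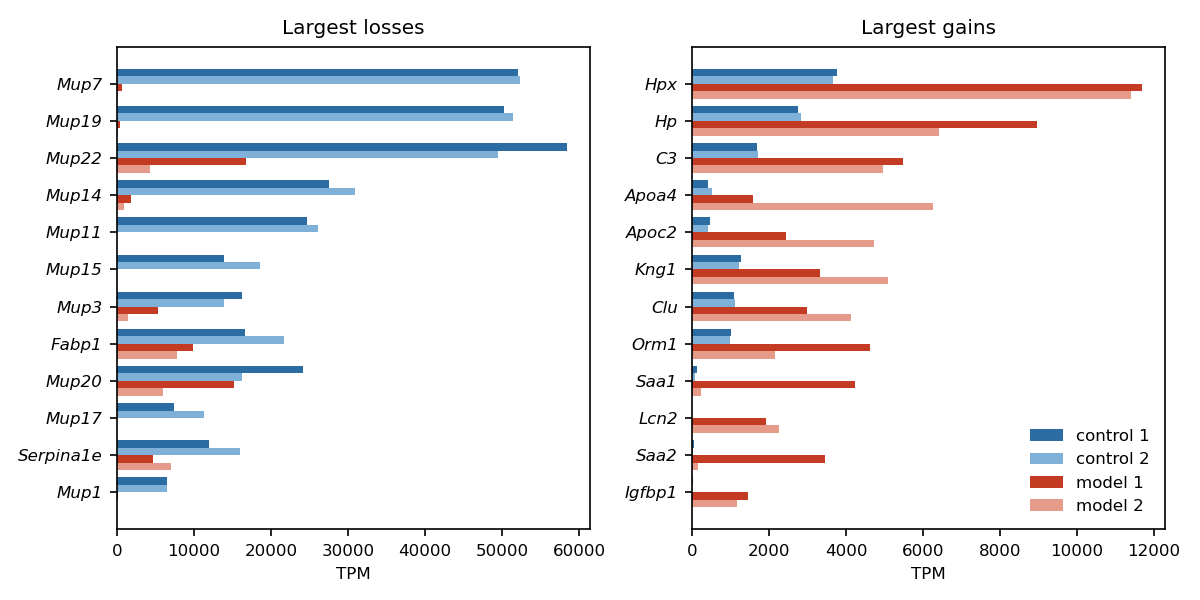
TPM in the 2 control and 2 model libraries (bars from 0) for the 12 called genes with the largest losses and the 12 with the largest gains in mean TPM. The losses are mostly Mup genes, and the gains are plasma proteins, among which Saa1 and Saa2 are high in model replicate 1 only.

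Markers of bile duct and scar-forming cells were higher in the model livers. Cholangiocyte markers, the genes of bile duct lining, rose in 7 of 8 tested members with a median of 2.91. Their summed TPM went from 55.9 and 52.4 in control to 483 and 680 in model. Most of that sum came from a single member, Spp1, which is also on the senescence and secretory list below. Control libraries were both under 1 FPKM for 4 of the 8, which favours a rise among genes that passed the filter. Pkhd1, the fibrocystin gene, went from 0.4 and 0.38 to 1.46 and 1.46 FPKM and rose by 1.65 (SE 0.20, adjusted p = 0.0021), and Bicc1, an RNA-binding protein of duct cells, went from 0.53 and 0.54 to 6.41 and 8.35 FPKM and rose by 3.54 (SE 0.25, adjusted p = 0.000427). Of the 2 remaining listed markers, Cftr and Sctr, neither reached the filter. Markers of stellate cells and fibroblasts rose in 7 of 10 members with a median of 2.10, and their summed TPM went from 120 and 119 to 541 and 496. Col1a1, the fibrillar collagen of scars, went from 0.68 and 0.82 to 15.1 and 34.9 FPKM and rose by 4.82 (SE 0.52, adjusted p = 0.00143), while Pdgfrb, the growth factor receptor of these cells, went from 1.04 and 1.19 to 4.97 and 6.21 FPKM and rose by 2.08 (SE 0.28, adjusted p = 0.00254). All 8 tested cholangiocyte markers were higher in each model library than in either control library. So were 9 of the 10 stellate and fibroblast markers, against 47.1% of all tested genes.

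Macrophage markers were mixed: 3 of 10 rose and 1 fell, with a median of 0.27, and leave-out counts of rises were 2, 1, 2 and 3. Their summed TPM was 448 and 363 in control and 871 and 599 in model. Timd4, a receptor of long-resident Kupffer cells, went from 7.89 and 5.83 to 1.88 and 0.94 FPKM and fell by 2.56 (SE 0.33, adjusted p = 0.00226), while Cd68, a lysosomal protein of all macrophages, went from 12.1 and 12.2 to 29.2 and 29.1 FPKM and rose by 1.00 (SE 0.15, adjusted p = 0.00406). Neutrophil markers rose in 4 of 6 tested members (median 3.45, or 3.32 with the member that had no control read at its bound), but their summed TPM was 299 in model replicate 1 and 83.6 in model replicate 2, against 15.2 and 9.95 in control, and leave-out counts were 1, 0, 1 and 4. S100a9, a calcium-binding protein of neutrophils, shows this with 4.74 and 2.3 FPKM in control and 78.3 and 21.1 in model, and its call was dependent on both control libraries (highest adjusted p = 0.104). Endothelial markers rose in 1 of 10 members with a median of 0.15, and of 10 T and NK markers 3 were tested and none passed. Of 10 B and plasma cell markers 5 were tested and 2, Jchain and Mzb1, rose, with a median of 0.69 and leave-out counts of 2, 1, 2 and 1 rises. The summed TPM of the B and plasma cell list went from 84.1 and 83.9 to 193 and 228. Jchain made up only a small part of the control sum, which also holds members that did not pass, such as Sdc1. The sum is therefore no measure of B or plasma cells. Jchain, the joining chain of secreted antibodies, went from 4.1 and 1.33 to 18.8 and 12.6 FPKM and rose by 2.26 (SE 0.41, adjusted p = 0.00848). Of 9 hepatocyte markers none rose and 1 fell, with a median of 0.07, and all 9 were read in every library, which matches the liver label. The member that fell was Cyp2e1, the P450 that activates both DEN and CCl4, which went from 4615 and 5500.2 to 1506 and 678 FPKM and fell by 2.52 (SE 0.40, adjusted p = 0.00479). Of 10 acinar pancreas genes 7 were in the table and 1 was tested, the elastase gene Cela1, which did not pass (10.9 and 10.9 FPKM in control, 21.6 and 30.7 in model, log2 difference 1.01, adjusted p = 0.112), though its groups did not overlap. The summed TPM of the acinar list, nearly all of it from Cela1, went from 13.0 and 12.8 to 31.5 and 44.0. Of 6 erythroid genes 1 fell and none rose (median 0.58). Car3, a carbonic anhydrase of adipose tissue and hepatocytes and the adipocyte list's only call, went from 1012 and 1194 to 344 and 192 FPKM and fell by 2.34 (SE 0.35, adjusted p = 0.00414).

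**Figure D4:**
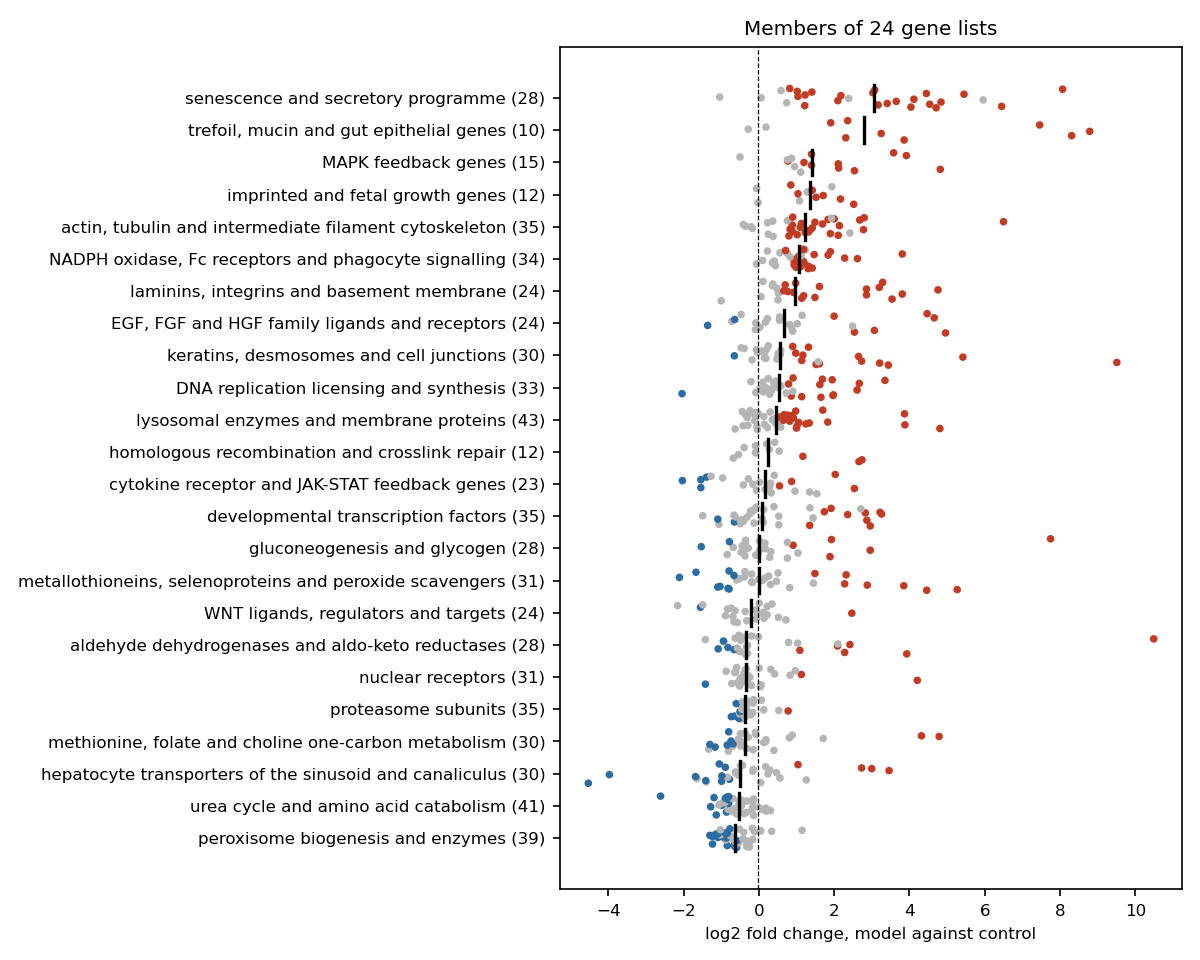
Log2 fold change (horizontal axis) of each tested member of 24 gene lists, with the number tested in brackets, black bars at list medians and a dashed line at the median of all tested genes (−0.01). Red members rose, blue members fell and grey members did not pass. Medians run from −0.63 for peroxisome genes to 3.06 for the senescence and secretory list.

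Peroxisomes shorten very long and branched fatty acids and break down hydrogen peroxide. Of 39 tested genes of peroxisome biogenesis and enzymes 16 fell (41.0%, against 7.12% of all tested genes) and none rose (against 15.1%). Falls were between 0.58 and 1.30, and the list median was −0.63. Phyh, which starts the breakdown of branched phytanic acid, had 1726 and 1806 FPKM in control and 1077 and 677 in model and fell by 1.30 (SE 0.26, adjusted p = 0.0126). Hao1, a glycolate oxidase, had 230.3 and 214 FPKM in control and 154 and 133 in model and fell by 0.90 (SE 0.17, adjusted p = 0.00952). Cat, catalase, had 1253 and 1218 FPKM in control and 916 and 508 in model and fell by 1.09 (SE 0.30, adjusted p = 0.0348). In each of the 3, both model libraries were below both controls, and model replicate 2 was the lower of them. The call of Phyh was dependent on control replicate 2 and model replicate 2 (highest adjusted p = 0.0702), that of Hao1 dependent on control replicate 2 (highest adjusted p = 0.0543) and that of Cat dependent on both control libraries and model replicate 2 (highest adjusted p = 0.139). Leave-out counts of falls were 5, 0, 15 and 2. On log2(TPM + 1), where the median of all genes is 0.50, the list median was −0.05, and limma counted 3 rises and 1 fall on log2(TPM + 1) and 1 rise and 3 falls on log2(FPKM + 1). Falls numbered 7 with totals without Alb and Mup genes and 2 with only the 2 groups fitted.

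The enzymes of the urea cycle and of amino acid breakdown, which clear nitrogen in hepatocytes, fell in 11 of 41 tested members and rose in none, with a median of −0.53. Oat, ornithine aminotransferase, had 531 and 634 FPKM in control and 123 and 108 in model and fell by 2.61 (SE 0.58, adjusted p = 0.0171). Tdo2, the first enzyme of tryptophan breakdown, had 1305 and 1048 FPKM in control and 807 and 379.5 in model and fell by 1.28 (SE 0.33, adjusted p = 0.0286), and Otc, which makes citrulline in the urea cycle, had 237 and 225 FPKM in control and 173 and 88 in model and fell by 1.13 (SE 0.30, adjusted p = 0.0322). Cps1, the entry enzyme of the urea cycle, did not pass, with 403 and 424 FPKM in control and 541 and 374 in model, values that overlap (−0.14, adjusted p = 0.819, and 0.45 on log2(TPM + 1)). None of the 11 calls held in every leave-out, and leave-out counts of falls were 2, 0, 12 and 0. The call of Oat was dependent on control replicate 2 and both model libraries (highest adjusted p = 0.0773), that of Tdo2 dependent on both control libraries and model replicate 2 (highest adjusted p = 0.112) and that of Otc dependent on both control libraries and model replicate 2 (highest adjusted p = 0.118). The list median was 0.06 on log2(TPM + 1), and limma counted 5 rises and 1 fall on log2(TPM + 1) and no rises and 1 fall on log2(FPKM + 1). Falls numbered 6 with totals without Alb and Mup genes and 3 with only the 2 groups fitted.

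One-carbon metabolism, which passes methyl groups from choline, serine and methionine, had 6 falls and 2 rises among 30 tested members (median −0.36, and 0.22 on log2(TPM + 1)), while limma counted 8 rises and no falls on log2(TPM + 1) and 4 rises and no falls on log2(FPKM + 1). Enzymes that use choline and methionine were among those that fell: Dmgdh, which demethylates dimethylglycine, had 155 and 153 FPKM in control and 96.6 and 57.1 in model and fell by 1.30 (SE 0.31, adjusted p = 0.0231), and Ahcy, which splits S-adenosylhomocysteine, had 690.0 and 681 FPKM in control and 478 and 273 in model and fell by 1.16 (SE 0.31, adjusted p = 0.0332). The 2 members that rose are serine-synthesis enzymes hardly read in control liver. Psat1 went from 0.9 and 0.75 to 13.4 and 25.4 FPKM and rose by 4.32 (SE 0.71, adjusted p = 0.00574), and Phgdh, the first enzyme of that route, went from 0.29 and 0.15 to 3.3 and 11 FPKM and rose by 4.79 (SE 1.01, adjusted p = 0.0144). No call of this list held in every leave-out, with 0, 0, 2 and 0 falls in turn: that of Dmgdh was dependent on both control libraries and model replicate 2 (highest adjusted p = 0.102) and that of Ahcy dependent on both control libraries and model replicate 2 (highest adjusted p = 0.138). The call of Psat1 was dependent on control replicate 2 (highest adjusted p = 0.0563) and that of Phgdh dependent on both control libraries (highest adjusted p = 0.0995). Of 28 tested genes of glucose output and glycogen 5 rose (17.9%, against 15.1% of all tested genes) and 2 fell (7.14%, against 7.12%), shares near those of all genes, with a median of 0. Leave-out counts were 3, 3, 6 and 5 rises and 2, 0, 5 and 0 falls. Igfbp1, named above, is on this list. Pygb, the glycogen phosphorylase of brain and fetal tissue, went from 1.84 and 1.84 to 13 and 21 FPKM and rose by 2.96 (SE 0.33, adjusted p = 0.00158), and Irs2, an adaptor of the insulin receptor, went from 0.95 and 0.69 to 3.75 and 3.7 FPKM and rose by 1.93 (SE 0.29, adjusted p = 0.00424).

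Transporters that hepatocytes place on the blood and bile sides changed both ways. Of 30 tested members 9 fell (30.0%, against 7.12% of all tested genes) and 4 rose (13.3%, near the 15.1% of all). The median was −0.51, and 0.07 on log2(TPM + 1). The balance turned with the scaling, as limma counted 9 rises and 3 falls on log2(TPM + 1) and 4 rises and 5 falls on log2(FPKM + 1). Leave-out counts were 4, 3, 12 and 4 falls and 3, 3, 4 and 5 rises. Slco1a1, an organic anion carrier of male liver, had 170.3 and 153 FPKM in control and 13 and 4.36 in model and fell by 4.53 (SE 0.43, adjusted p = 0.00092). Slc1a2, a glutamate carrier of pericentral hepatocytes, had 36.6 and 32.5 FPKM in control and 3.39 and 1.17 in model and fell by 3.97 (SE 0.53, adjusted p = 0.00253). These were the 2 largest falls of the list. Slc10a1, the sodium-dependent bile acid carrier, went from 328 and 322 to 179 and 120.2 FPKM and fell by 1.41 (SE 0.27, adjusted p = 0.00959). The call of Slc10a1 was dependent on control replicate 2 (highest adjusted p = 0.0535). Of the 4 transporters that rose, a share near that of all genes, 3 pump substrates out of cells. Abcb1a, the drug efflux pump P-glycoprotein, went from 0.34 and 0.21 to 3.68 and 3.69 FPKM and rose by 3.46 (SE 0.39, adjusted p = 0.00163). Abcc4, an exporter of the blood side, went from 0.74 and 0.46 to 7.86 and 3.99 FPKM and rose by 3.0 (SE 0.36, adjusted p = 0.00181), and Abcc5, its relative, went from 0.95 and 0.75 to 6.74 and 5.38 FPKM and rose by 2.73 (SE 0.32, adjusted p = 0.00167). All 3 pumps were under 1 FPKM in both control libraries, and passing the filter from there favours a rise. Their model levels stayed under 10 FPKM, below the control levels of Slco1a1, Slc1a2 and Slc10a1. Aqp8, a water channel of the bile side, was the other that rose, by 1.04 (SE 0.19, adjusted p = 0.0078), from 26.3 and 25.4 to 60.5 and 67.1 FPKM. The call of Aqp8 was dependent on both control libraries (highest adjusted p = 0.0612). Proteasome subunits fell in 6 of 35 and rose in 1, the immunoproteasome subunit Psmb8, a balance that turned with the scaling: limma counted 7 rises and no falls on log2(TPM + 1) and 1 rise and no falls on log2(FPKM + 1). With totals without Alb and Mup genes 3 fell, and with only the 2 groups fitted none did. It went from 23.6 and 23.1 to 48.5 and 47.9 FPKM and rose by 0.78 (SE 0.19, adjusted p = 0.025). The call of Psmb8 was dependent on both control libraries and model replicate 2 (highest adjusted p = 0.117). The proteasome median was −0.36, and 0.22 on log2(TPM + 1). None of the 7 proteasome calls held in every leave-out, and leave-out counts were 0, 0, 6 and 1 falls.

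Many imprinted and fetal growth genes are more active before birth than in adult liver. The list was not silent in control, where its summed TPM was 289 and 307, against 449 and 510 in model. Of 25 listed, 20 were in the table and 12 were tested, and 7 of these rose and none fell, with a median of 1.35 and leave-out counts of 3, 3, 8 and 6 rises. Control libraries were both under 1 FPKM for 5 of the 12, which favours a rise among genes that passed the filter. Sgce, a sarcoglycan expressed from the paternal allele, went from 3.84 and 3.32 to 11.8 and 11.3 FPKM and rose by 1.42 (SE 0.20, adjusted p = 0.00286). Grb10, an adaptor that restrains growth signalling, went from 1.13 and 0.67 to 3.46 and 3.43 FPKM and rose by 1.71 (SE 0.26, adjusted p = 0.00421). Igf2, the fetal insulin-like growth factor, went from 0.36 and 0.19 to 1.53 and 1.8 FPKM and rose by 2.52 (SE 0.41, adjusted p = 0.00546). The call of Igf2 was dependent on control replicate 2 (highest adjusted p = 0.0529). Its clearance receptor Igf2r rose by 1.04 (SE 0.22, adjusted p = 0.0151), from 4.22 and 4.09 to 8.92 and 11.5 FPKM. The call of Igf2r was dependent on both control libraries and model replicate 2 (highest adjusted p = 0.0897). These levels stayed low next to Afp and Gpc3. In each of the 4 genes both model libraries were above both controls, as in 11 of the 12 tested members and 47.1% of all tested genes.

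Genes of gut and airway epithelium held some of the largest gains. Of 24 listed genes 10 were tested, and 8 of them rose (median 2.80), with leave-out counts of 7, 6, 8 and 8. As many as 5 of the 10 were under 1 FPKM in both control libraries, and passing the filter from there favours a rise. Ly6d, a surface protein of squamous epithelium, went from 2.74 and 0.32 to 347 and 794 FPKM and rose by 8.31 (SE 1.08, adjusted p = 0.00237). Spink1, a trypsin inhibitor of pancreas and tumours, had 0 and 0.53 FPKM in control, from 1 read, and 171 and 160.0 in model, a ratio of 538 (exact 95% counting interval 96.2 to 21300). Tff3, the trefoil peptide that protects mucosa, was already read in control at 17.9 and 18.6 FPKM and reached 228 and 386 in model, a rise of 3.86 (SE 0.38, adjusted p = 0.001). Cdhr2, a protocadherin of the brush border, went from 0.01 and 0.05 to 4.12 and 8.86 FPKM and rose by 7.46 (SE 0.86, adjusted p = 0.00167), and the mucin Muc1 went from 0.55 and 0.33 to 2.89 and 2.39 FPKM and rose by 2.31 (SE 0.37, adjusted p = 0.00494). In these 5 genes no control library reached the level of a model library, as in 9 of the 10 tested members and 47.1% of all tested genes. Bile duct markers were higher in the same libraries, as was the acinar pancreas gene Cela1, which did not pass. The part of duct or acinar cells in these values was not tested.

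Keratins and junction proteins, which tie epithelial cells together, rose in 13 of 30 tested members (43.3%, against 15.1% of all tested genes). They fell in 1 (3.33%, against 7.12%). The median was 0.57, and leave-out counts of rises were 5, 6, 14 and 7. Control libraries were both under 1 FPKM for 5 of the 30. Krt8, the type II keratin of hepatocytes, went from 74.5 and 131 to 335 and 379 FPKM and rose by 1.52 (SE 0.31, adjusted p = 0.0138), and its partner Krt18 went from 112 and 165 to 383 and 624 FPKM and rose by 1.61 (SE 0.35, adjusted p = 0.0156). The call of Krt8 was dependent on control replicate 1 and model replicate 2 (highest adjusted p = 0.0546) and that of Krt18 dependent on control replicate 1 and model replicate 2 (highest adjusted p = 0.0901). Duct-type keratins rose further from a low base. Krt19 went from 0.37 and 1.53 to 10.1 and 8.54 FPKM and rose by 3.21 (SE 0.50, adjusted p = 0.0046), and Krt7 from 0.18 and 0.41 to 3.22 and 4.45, a rise of 3.44 (SE 0.48, adjusted p = 0.00311). Epcam, an adhesion molecule of duct and progenitor cells, went from 0.83 and 0.93 to 6.83 and 7.25 FPKM and rose by 2.73 (SE 0.32, adjusted p = 0.00177), and Cldn4, a tight junction claudin, went from 0 and 0.08 FPKM (2 reads in all) to 1.55 and 2.73, a ratio of 47.2 (exact 95% counting interval 12.8 to 394) with adjusted p = 0.00464. Krt7, Krt19 and Epcam are also on the cholangiocyte list, so these values and the cholangiocyte count are not separate observations. Cldn12, the member that fell, had 26.1 and 27.3 FPKM in control and 22.7 and 18.4 in model and fell by 0.65 (SE 0.16, adjusted p = 0.0248). The call of Cldn12 was dependent on both control libraries and model replicate 2 (highest adjusted p = 0.117).

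The cytoskeleton list rose in 24 of 35 tested members and fell in none, with a median of 1.23. Vim, the intermediate filament of mesenchymal cells, went from 12.6 and 10.2 to 51.5 and 57.2 FPKM and rose by 2.00 (SE 0.17, adjusted p = 0.000615). Tubb6, a tubulin, went from 3.7 and 4.51 to 23.5 and 39 FPKM and rose by 2.68 (SE 0.35, adjusted p = 0.00252), and the actin-bundling protein Tagln2 from 8.73 and 9.77 to 55.1 and 95.6, a rise of 2.78 (SE 0.36, adjusted p = 0.00232). The tropomyosins Tpm1 and Tpm4, which coat actin filaments, rose by 1.90 (SE 0.29, adjusted p = 0.0041) and 1.23 (SE 0.15, adjusted p = 0.0022). Flna, a filamin that crosslinks actin, rose by 1.42 (SE 0.16, adjusted p = 0.00152), from 3.49 and 3.28 to 10.8 and 11 FPKM. Ezr, which links actin to the membrane, rose by 2.14 (SE 0.25, adjusted p = 0.00181), from 2.23 and 1.49 to 9.13 and 10.4 FPKM. In these 7 genes both model libraries were above both controls, as in 31 of the 35 tested members and 47.1% of all tested genes. Tmsb4x, the abundant actin-binding thymosin, and Actg1, a cytoplasmic actin, rose by less, 0.90 (SE 0.19, adjusted p = 0.0158) and 0.80 (SE 0.21, adjusted p = 0.0318). The call of Tmsb4x was dependent on control replicate 2 (highest adjusted p = 0.122) and that of Actg1 dependent on both control libraries and model replicate 2 (highest adjusted p = 0.161). Leave-out counts were 11, 9, 27 and 14 rises, and stellate and fibroblast markers rose in the same libraries, whose part in this count was not tested.

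Basement membranes, the sheets under epithelium and vessels, are thin in the normal liver sinusoid. Of 24 tested laminins, integrins and related genes 16 rose and none fell (median 0.95), with leave-out counts of 8, 9, 17 and 12 rises. Passing the filter favours a rise for 7 of the 24, which were under 1 FPKM in both control libraries. Nid1, the nidogen that joins laminin to collagen, went from 2.91 and 2.93 to 31.3 and 65.2 FPKM and rose by 3.81 (SE 0.56, adjusted p = 0.00372). Among laminin chains, Lama5 went from 0.21 and 0.12 to 2.28 and 2.35 FPKM and rose by 3.54 (SE 0.39, adjusted p = 0.00153). Among their receptors, Itga6 went from 0.82 and 0.2 to 4.26 and 6.78 FPKM and rose by 3.20 (SE 0.56, adjusted p = 0.00725), and the collagen receptor Itga2 went from 0.03 and 0.04 to 0.85 and 1.6 FPKM and rose by 4.76 (SE 0.70, adjusted p = 0.00382). Apart from Nid1, these genes stayed under 10 FPKM. Stellate and bile duct markers rose in the same libraries, and their part in these values was not tested.

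Growth factors of the EGF, FGF and HGF families control regrowth of liver and duct. Of 24 tested members 6 rose (25.0%, against 15.1% of all tested genes) and 2 fell (8.33%, near the 7.12% of all). The median was 0.68, and leave-out counts of rises were 3, 3, 8 and 9. As the filter was passed without control by 6 of the 24, under 1 FPKM in both control libraries, a rise is favoured there. Ligands of the EGF family are encoded by 4 of the 6 that rose. Nrg1, a neuregulin, went from 0.19 and 0.12 to 3.06 and 5.17 FPKM and rose by 4.47 (SE 0.55, adjusted p = 0.00212), and Btc, betacellulin, went from 0.39 and 0.43 to 4.6 and 3.75 FPKM and rose by 3.07 (SE 0.28, adjusted p = 0.000842). Areg, amphiregulin, had 0 and 0.06 FPKM in control, from 1 read, and 1.73 and 1.17 in model, a ratio of 37.7 (exact 95% counting interval 6.46 to 1520) with adjusted p = 0.018. Hbegf, a further ligand of the EGF receptor, went from 0.32 and 0.31 to 1.98 and 2.44 FPKM and rose by 2.54 (SE 0.49, adjusted p = 0.0103). The call of Areg was dependent on both control libraries (highest adjusted p = 0.0962) and that of Hbegf dependent on both control libraries (highest adjusted p = 0.073). The falls were in Fgf1, which went from 20.9 and 23.4 to 13.2 and 8.25 FPKM and fell by 1.36 (SE 0.21, adjusted p = 0.0046), and in the HGF receptor Met, which went from 11.8 and 10.3 to 9.86 and 7.32 FPKM and fell by 0.64 (SE 0.16, adjusted p = 0.0237). The call of Met was dependent on both control libraries and model replicate 2 (highest adjusted p = 0.103). Fgf21, a fasting hormone of liver, did not pass: it stood at 9.98 and 5.94 FPKM in control and at 107 and 6.66 in model, so model replicate 2 lay between the control libraries (2.49, adjusted p = 0.117). Feedback genes that growth factor signalling through MAP kinases switches on rose in 10 of 15 tested members, with no fall and a median of 1.40. Among the 15, 4 were under 1 FPKM in both control libraries. Dusp5, a phosphatase that inactivates ERK, went from 0.22 and 0.31 to 6.74 and 11.3 FPKM and rose by 4.82 (SE 0.64, adjusted p = 0.00256), and Egr1, an early-response factor, went from 4.54 and 1.62 to 77.8 and 35.3 FPKM and rose by 3.92 (SE 0.50, adjusted p = 0.00229). Ccnd1, the cyclin of cell cycle entry, went from 9.53 and 10.3 to 23.4 and 39 FPKM and rose by 1.40 (SE 0.34, adjusted p = 0.0227). The call of Ccnd1 was dependent on both control libraries and model replicate 2 (highest adjusted p = 0.116). Leave-out counts for the feedback list were 2, 3, 13 and 6 rises.

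Of 23 tested cytokine receptor and JAK-STAT feedback genes 4 rose (17.4%, near the 15.1% of all tested genes) and 4 fell (17.4%, against 7.12%), with a median of 0.17 and leave-out counts of 4, 2, 4 and 3 rises and 2, 1, 2 and 3 falls. Osmr, the oncostatin M receptor, went from 0.67 and 0.57 to 4.37 and 4.36 FPKM and rose by 2.54 (SE 0.18, adjusted p = 0.000427). Lifr, a receptor that shares its partner chain, went from 115 and 146 to 48.7 and 40.4 FPKM and fell by 1.54 (SE 0.16, adjusted p = 0.00123). The groups did not overlap in either gene. Ghr, the growth hormone receptor, had 221 and 204 FPKM in control and 120.1 and 52.2 in model and fell by 1.54 (SE 0.33, adjusted p = 0.0155). The call of Ghr was dependent on both control libraries (highest adjusted p = 0.0646). Junb, a target of these receptors, went from 8.31 and 10 to 50 and 40.7 FPKM and rose by 2.03 (SE 0.22, adjusted p = 0.00143). Of 24 tested WNT genes 1 rose and 1 fell (4.17% each, against 15.1% and 7.12% of all tested genes). Their median was −0.20 (0.28 on log2(TPM + 1)), with values from −2.16 to 2.47. Falls numbered 3 with DESeq2 and with only the 2 groups fitted. Dkk3, a Dickkopf-family secreted protein, went from 0.73 and 0.65 to 5.22 and 4.14 FPKM and rose by 2.47 (SE 0.24, adjusted p = 0.000975), and Notum, an enzyme that inactivates WNT ligands, went from 14.8 and 12.7 to 7.11 and 4.5 FPKM and fell by 1.55 (SE 0.28, adjusted p = 0.00779). Ctnnb1, the beta-catenin gene, did not pass, with 64.7 and 62.1 FPKM in control, 98.5 and 97.6 in model and a log2 difference of 0.35 (adjusted p = 0.181).

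Of 31 tested nuclear receptors 2 rose (6.45%, against 15.1% of all tested genes) and 1 fell (3.23%, against 7.12%), both below the shares of all genes. The median was −0.35, and 0.23 on log2(TPM + 1). Counts with limma were 7 rises and no falls on log2(TPM + 1) and 3 rises and no falls on log2(FPKM + 1). Nr1i3, the drug-sensing receptor CAR, had 51.8 and 49.7 FPKM in control and 35.9 and 10.8 in model and fell by 1.42 (SE 0.40, adjusted p = 0.0401). The call of Nr1i3 was dependent on both control libraries (highest adjusted p = 0.13). Nr4a1, an early-response receptor, had 0.4 and 0.51 FPKM in control and 18.9 and 3.09 in model and rose by 4.21 (SE 0.75, adjusted p = 0.00765). The call of Nr4a1 was dependent on both control libraries (highest adjusted p = 0.06). Hnf4a, the master receptor of hepatocyte genes, did not pass, with 176 and 175 FPKM in control and 203 and 132 in model, values that overlap (−0.36, adjusted p = 0.281, and 0.22 on log2(TPM + 1)). Among 35 tested developmental transcription factors 9 rose (25.7%, against 15.1% of all tested genes) and 2 fell (5.71%, near the 7.12% of all). The median was 0.09, with leave-out counts of 6, 3, 9 and 9 rises. Under 1 FPKM in both control libraries were 7 of the 35, and passing the filter from there favours a rise. Ehf, an ETS factor of epithelium, went from 0.24 and 0.23 to 2.94 and 2.46 FPKM and rose by 3.22 (SE 0.25, adjusted p = 0.000461), and its relative Elf3 went from 0.55 and 0.46 to 3.51 and 4.96 FPKM and rose by 2.83 (SE 0.39, adjusted p = 0.0028). Id1, an inhibitor of differentiation factors, went from 6.47 and 5.07 to 23.6 and 22.2 FPKM and rose by 1.74 (SE 0.26, adjusted p = 0.00386). Cebpa, a factor of mature hepatocytes, had 140.1 and 147 FPKM in control and 74.8 and 87.4 in model and fell by 1.09 (SE 0.30, adjusted p = 0.0365). The call of Cebpa was dependent on each of the 4 libraries (highest adjusted p = 0.14).

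Lysosomes digest engulfed and worn-out material, and they are most plentiful in macrophages. Of 43 tested lysosomal genes 18 rose and none fell, with a median of 0.45. Cd63, a tetraspanin of lysosomes and exosomes, went from 7.77 and 5.2 to 148 and 278 FPKM and rose by 4.81 (SE 0.47, adjusted p = 0.00101). Ctsk, a collagen-cutting cathepsin, went from 0.4 and 0.23 to 7.29 and 4.13 FPKM and rose by 3.88 (SE 0.48, adjusted p = 0.00207), and Atp6v0d2, a proton pump subunit of macrophages and osteoclasts, went from 0.13 and 0.26 to 3.86 and 3.06 FPKM and rose by 3.87 (SE 0.41, adjusted p = 0.00123). The groups were apart in these 3 genes, and model was higher without overlap in 32 of the 43 members and 47.1% of all tested genes. Ctsd, an aspartic protease, went from 173 and 183 to 401 and 459.6 FPKM and rose by 1.01 (SE 0.20, adjusted p = 0.0114). The call of Ctsd was dependent on both control libraries (highest adjusted p = 0.0789). Ctsk and Atp6v0d2 were under 1 FPKM in both control libraries, and passing the filter from there favours a rise. Genes of the phagocyte oxidase, Fc receptors and their signalling rose in 22 of 34 members, with no fall and a median of 1.08. The same limit holds for 5 of the 34, Itgam and Tlr1 among them. Itgam, the integrin CD11b, went from 0.47 and 0.32 to 3.55 and 2.35 FPKM and rose by 2.62 (SE 0.25, adjusted p = 0.000974), and Tlr1, a receptor for bacterial lipopeptides, went from 0.62 and 0.43 to 6.97 and 10.8 FPKM and rose by 3.81 (SE 0.50, adjusted p = 0.00253). Clec7a, the fungal sensor Dectin-1, and Fcgr3, an antibody receptor, rose by 1.84 (SE 0.30, adjusted p = 0.00537) and 1.20 (SE 0.19, adjusted p = 0.00494). Cybb, the catalytic subunit of the oxidase, went from 6.16 and 4.14 to 21.5 and 12 FPKM and rose by 1.42 (SE 0.25, adjusted p = 0.00778). The call of Cybb was dependent on control replicate 2 (highest adjusted p = 0.0691). Leave-out counts of rises were 11, 4, 17 and 20 for the phagocyte list and 8, 6, 20 and 12 for the lysosome list. Of the macrophage markers beside these lists 3 of 10 rose, and their part in the result was not tested.

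The senescence and secretory list, genes of growth-arrested cells and of what they release, had a median of 3.06 (2.71 with the member that had no control read at its bound), and 22 of 28 tested members rose with none falling. Under 1 FPKM in both control libraries were 11 of the 28, so the way they passed the filter favours a rise. The cyclin-dependent kinase inhibitor Cdkn2b went from 0.16 and 0.11 to 7.41 and 20.5 FPKM and rose by 6.45 (SE 0.93, adjusted p = 0.00347), and Cdkn1a, the p21 gene, went from 2.16 and 1.34 to 69.4 and 42.6 FPKM and rose by 4.71 (SE 0.90, adjusted p = 0.01). The call of Cdkn1a was dependent on both control libraries (highest adjusted p = 0.0837). Among secreted proteins, Timp1, an inhibitor of matrix proteases, went from 0.1 and 0.21 FPKM (3 reads in all) to 8.33 and 8.54, a ratio of 46.6 (exact 95% counting interval 15.7 to 228) with adjusted p = 0.00226. Mmp12, the macrophage elastase, went from 0.19 and 0.32 to 11.7 and 9.65 FPKM and rose by 4.84 (SE 0.29, adjusted p = 0.000362). Every model value of these 4 genes was above every control value, as in 26 of the 28 tested members and 47.1% of all tested genes. Cxcl1, a neutrophil attractant, went from 4.05 and 1.65 to 86.6 and 35.8 FPKM and rose by 4.12 (SE 0.45, adjusted p = 0.00142), and Spp1, osteopontin, went from 38.4 and 33.7 to 293 and 430.4 FPKM and rose by 3.08 (SE 0.27, adjusted p = 0.000791). Among receptors, Tnfrsf12a, the TWEAK receptor, and Tnfrsf10b, a death receptor for TRAIL, rose by 3.03 (SE 0.41, adjusted p = 0.00264) and 4.45 (SE 0.59, adjusted p = 0.00252). Igfbp7, an abundant member, went from 69.2 and 66.7 to 203 and 181 FPKM and rose by 1.23 (SE 0.14, adjusted p = 0.00176). Of the 22 rises 11 held in every leave-out, and leave-out counts were 13, 11, 22 and 17. Spp1 and Gpnmb are made by duct cells and macrophages too, and the part of those cells was not tested. Spp1 is also on the cholangiocyte list, so its rise here and there is not a separate observation.

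DNA replication genes rose in 13 of 33 tested members (39.4%, against 15.1% of all tested genes) and fell in 1 (3.03%, against 7.12%). The median was 0.54. Under 1 FPKM in both control libraries were 8 of the 33, and passing the filter from there favours a rise. Mcm6, a subunit of the replicative helicase, went from 2.19 and 1.76 to 9.18 and 9.89 FPKM and rose by 1.98 (SE 0.24, adjusted p = 0.00189). Rrm2, which makes deoxynucleotides, went from 1.25 and 1.59 to 11.9 and 9.98 FPKM and rose by 2.67 (SE 0.39, adjusted p = 0.00379), and Lig1, the ligase of the lagging strand, went from 0.92 and 0.9 to 3.15 and 3.53 FPKM and rose by 1.62 (SE 0.23, adjusted p = 0.00329). Both model values exceeded both control values in these 3 genes, as in 28 of the 33 tested members and 47.1% of all tested genes. Mcm5, a further helicase subunit, went from 0.61 and 0.81 to 2.61 and 4.02 FPKM and rose by 1.97 (SE 0.42, adjusted p = 0.0155). The call of Mcm5 was dependent on both control libraries and model replicate 2 (highest adjusted p = 0.0926). Pcna, the sliding clamp, did not pass, with 29.3 and 26.5 FPKM in control and 51.1 and 33.4 in model (0.31, adjusted p = 0.252). Mcm10, a factor that activates the loaded helicase, went from 21.1 and 24.3 to 6.96 and 6.44 FPKM and fell by 2.04 (SE 0.27, adjusted p = 0.00247). Its control level was above that of every other Mcm gene on the list. Of 12 tested genes of recombination repair 3 rose (25.0%, against 15.1% of all tested genes), among them Brca1, from 0.16 and 0.1 to 1.12 and 1.03 FPKM, a rise of 2.66 (SE 0.39, adjusted p = 0.00378). Leave-out counts for the replication list were 5, 4, 14 and 8 rises.

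Replication genes are classic targets of E2F factors, so their promoters were searched for the E2F words TTTCGCGC and TTTGGCGC on both strands in RefSeq windows (GRCm38.p6) from 250 bases before to 50 after the start. A word was found for 251 of 27025 genes with such a window (0.929%), for 1.74% of tested genes with one and for 10 of the 28 replication genes with one (35.7%). Of those 10 genes 6 rose, and of the 18 without a word 5 rose. The promoters of Mcm6 (chr1:128359656-128359955, minus strand, 3 matches) and Mcm5 (chr8:75109259-75109558, plus strand, 2 matches) are printed as the single-promoter members with the most matches among those that rose, while Dnmt1 holds 2 matches and has 3 windows. Capitals mark the words, and matches on opposite strands may overlap.
Mcm6: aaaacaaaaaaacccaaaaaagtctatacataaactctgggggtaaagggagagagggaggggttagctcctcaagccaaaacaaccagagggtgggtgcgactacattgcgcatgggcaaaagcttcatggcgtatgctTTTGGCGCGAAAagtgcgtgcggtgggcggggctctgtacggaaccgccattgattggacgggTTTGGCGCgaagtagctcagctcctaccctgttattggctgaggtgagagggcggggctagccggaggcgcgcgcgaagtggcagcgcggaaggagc
Mcm5: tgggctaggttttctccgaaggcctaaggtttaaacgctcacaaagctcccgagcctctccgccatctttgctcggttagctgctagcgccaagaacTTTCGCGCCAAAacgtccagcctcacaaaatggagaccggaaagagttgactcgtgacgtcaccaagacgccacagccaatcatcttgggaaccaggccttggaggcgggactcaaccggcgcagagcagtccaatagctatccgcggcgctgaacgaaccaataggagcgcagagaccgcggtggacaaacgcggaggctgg
A match describes letters only, and binding of a factor was not measured in these livers.

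Metallothioneins, selenoproteins and peroxide scavengers showed 7 rises and 8 falls among 31 tested members (median 0), while limma counted 15 rises and 2 falls on log2(TPM + 1) and 12 rises and 2 falls on log2(FPKM + 1), with leave-out counts of 3, 3, 8 and 6 rises and 2, 2, 7 and 2 falls. Abundant hepatocyte enzymes were on the falling side. Selenbp2, a selenium-binding protein, went from 365 and 657 to 107 and 177 FPKM and fell by 2.11 (SE 0.38, adjusted p = 0.00845), and Dio1, the selenoenzyme that activates thyroid hormone, went from 143 and 166 to 77 and 42.8 FPKM and fell by 1.67 (SE 0.28, adjusted p = 0.00609). Gpx1, the main glutathione peroxidase, had 2190.4 and 2255 FPKM in control and 1801 and 884 in model and fell by 1.03 (SE 0.31, adjusted p = 0.0462). The call of Gpx1 was dependent on both control libraries and model replicate 2 (highest adjusted p = 0.163). On the rising side, Gpx3, the plasma glutathione peroxidase, went from 3.92 and 3.81 to 28.6 and 39.1 FPKM and rose by 2.88 (SE 0.29, adjusted p = 0.00101), and Srxn1, which repairs oxidised peroxiredoxins, went from 17 and 15.6 to 136 and 65 FPKM and rose by 2.32 (SE 0.28, adjusted p = 0.00194). The metal-binding metallothionein Mt1 went from 9.44 and 7.47 to 314 and 142 FPKM and rose by 4.46 (SE 0.83, adjusted p = 0.00896), and its neighbour Mt2 went from 4.32 and 1.74 to 248 and 48 FPKM and rose by 5.27 (SE 1.43, adjusted p = 0.0348). Both were higher in model replicate 1 than in model replicate 2, and the call of Mt1 was dependent on both control libraries (highest adjusted p = 0.0736) and that of Mt2 dependent on both control libraries and model replicate 1 (highest adjusted p = 0.171).

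Metallothionein promoters are known for metal response elements, and the core words TGCACNC and TGCGCNC were searched in the same windows on both strands. Mt1 (chr8:94178839-94179138, plus strand) holds 3 and Mt2 (chr8:94172368-94172667, plus strand) holds 4. Among all genes with a window 28.2% hold at least 1 such word, 2.27% at least 3 and 0.588% at least 4. Among tested genes with a window the shares are 39.6%, 3.82% and 0.987%. The windows are printed because the pair moved together, with the words in capitals.
Mt1: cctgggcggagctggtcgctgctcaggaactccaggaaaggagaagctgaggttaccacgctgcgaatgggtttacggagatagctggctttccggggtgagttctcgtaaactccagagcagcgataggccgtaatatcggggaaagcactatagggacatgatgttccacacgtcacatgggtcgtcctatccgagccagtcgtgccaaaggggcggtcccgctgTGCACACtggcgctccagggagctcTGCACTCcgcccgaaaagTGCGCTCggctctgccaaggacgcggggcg
Mt2: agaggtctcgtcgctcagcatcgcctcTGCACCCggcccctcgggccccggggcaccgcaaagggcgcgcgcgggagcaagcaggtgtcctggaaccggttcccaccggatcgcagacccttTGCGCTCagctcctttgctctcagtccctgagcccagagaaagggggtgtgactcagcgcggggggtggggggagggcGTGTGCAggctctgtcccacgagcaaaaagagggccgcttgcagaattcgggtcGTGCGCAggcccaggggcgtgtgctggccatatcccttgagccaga

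Aldehyde dehydrogenases and aldo-keto reductases, which detoxify carbonyls and handle retinoids and steroids, showed 6 rises and 4 falls among 28 tested members (median −0.34, and 0.23 on log2(TPM + 1)), while limma counted 9 rises and no falls on log2(TPM + 1) and 9 rises and no falls on log2(FPKM + 1), with leave-out counts of 6, 4, 6 and 5 rises and 0, 1, 7 and 0 falls. Beside Akr1c18, the mitochondrial Aldh1b1 went from 17.3 and 18.1 to 81.9 and 122 FPKM and rose by 2.28 (SE 0.36, adjusted p = 0.00471), and Aldh18a1, an enzyme of proline synthesis, went from 0.57 and 0.74 to 2.91 and 3.77 FPKM and rose by 2.09 (SE 0.32, adjusted p = 0.00462). Aldh1a2, which makes retinoic acid in stellate and mesothelial cells, went from 0.09 and 0.09 to 1.16 and 2.09 FPKM and rose by 3.93 (SE 0.56, adjusted p = 0.00325). The model libraries were above the controls in these 3 genes. Aldh6a1, of valine breakdown, had 160.1 and 131 FPKM in control and 107 and 61 in model and fell by 1.08 (SE 0.24, adjusted p = 0.0185). The call of Aldh6a1 was dependent on both control libraries and model replicate 2 (highest adjusted p = 0.0856).

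The 2 model livers differed from each other more than other pairs did. On log2(TPM + 1), 597 tested genes (5.14%) were at least 2-fold apart between the model libraries, against 127 (1.09%) between the control libraries and 232 and 234 within DWYG-M and DWYG-H. The gap was smaller on log2 CPM, with 743 genes in model, 396 in control, 387 in DWYG-M and 390 in DWYG-H. The genes named next are among those chosen as furthest apart between the model libraries. Saa1, a serum amyloid protein, went from 96.8 and 50.7 to 2917 and 162 FPKM and rose by 4.01 (SE 1.12, adjusted p = 0.0381), and Saa2, its near copy, went from 44.8 and 24.4 to 2380.4 and 109 FPKM and rose by 4.82 (SE 1.27, adjusted p = 0.0314). The call of Saa1 was dependent on both control libraries and model replicate 1 (highest adjusted p = 0.24) and that of Saa2 dependent on both control libraries and model replicate 1 (highest adjusted p = 0.166). Atf3, a stress-induced factor, stood at 123 and 7.71 FPKM in the model libraries and 0.84 and 1.08 in control and rose by 5.73 (SE 1.13, adjusted p = 0.0115). The call of Atf3 was dependent on both control libraries (highest adjusted p = 0.0809). Fos, an early-response gene, stood at 47.7 and 3.61 FPKM in the model libraries and 0.46 and 0.55 in control and rose by 5.30 (SE 1.15, adjusted p = 0.0162). The call of Fos was dependent on both control libraries (highest adjusted p = 0.0986). Among the Mup genes, Mup1 stood at 96.5 and 12.5 FPKM in model replicates 1 and 2 against 5569 and 5674 in control. Model replicate 2 was the higher in Afp and in Apoa4, a lipoprotein gene with 1087 and 4373 FPKM in model and 347 and 462 in control, which rose by 2.54 (SE 0.74, adjusted p = 0.0436). The call of Apoa4 was dependent on both control libraries and model replicate 2 (highest adjusted p = 0.257). Bex1, a gene of neurons and progenitor cells, stood at 10.6 and 38.8 FPKM in model and 0.41 and 0 in control and rose by 6.61 (SE 1.17, adjusted p = 0.00737). The call of Bex1 was dependent on control replicate 2 (highest adjusted p = 0.062). With 2 animals the data do not tell which of the model livers is the more typical.

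**Figure D5:**
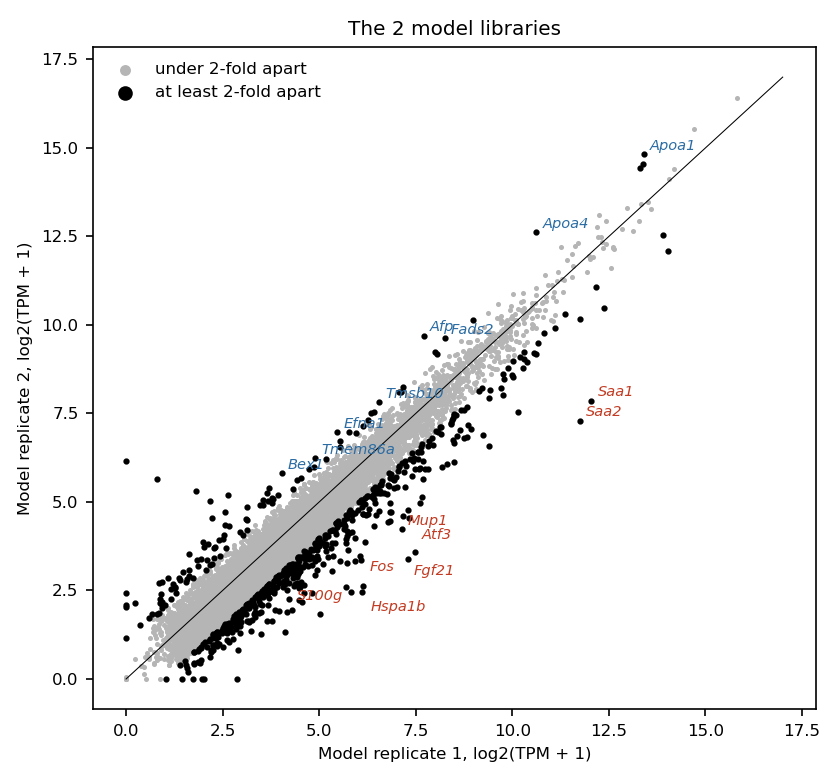
Log2(TPM + 1) of each tested gene in model replicate 1 (horizontal axis) and model replicate 2 (vertical axis), with the line of equality and the 597 genes at least 2-fold apart in black. Saa1 and Saa2 lie far below the line (higher in replicate 1), and Afp and Apoa4 above it.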

How the data were processed

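RNA of 8 mouse livers was sequenced from 2 µg of total RNA each with a SMART-Seq mRNA library kit, per the labels' protocols. The deposited table gives each gene's read count per library, and because some values carry fractions they were treated as estimated counts. The same deposited table gives FPKM and TPM, which the authors made by scaling for gene length and depth, per the file headers. Reads were placed on build GRCm39, per the submitters' processing notes. The sources used here name no aligner, counter, annotation or strand setting. The 8 columns of normalized counts and the 16 columns of group averages were not used.

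Counts were rounded to whole numbers and fitted with edgeR 4.0.16 (R 4.3.3, TMM scaling, quasi-likelihood test) in 1 model of the 4 groups. P-values were adjusted by the Benjamini-Hochberg method over 11606 genes. A prior count of 2 entered the log2 CPM values behind library correlations and differences between replicates. It did not enter the fold changes, for which edgeR's default was kept. Residual degrees of freedom were 4. DESeq2 1.42.0 and limma 3.58.1 (log2 of FPKM + 1, FPKM + 0.1 or TPM + 1) were alternatives, as were other scalings and filters, a fit of the 2 groups alone, a replicate block and leaving out each library. Genes were placed in groups by the labels, and replicate numbers did not pair animals. The members and gene lists were chosen with earlier results of these data known. Named genes are the 4 markers, the 12 largest TPM gains and losses among calls, the 12 largest fold gains and losses with a group mean of at least 20 FPKM and no overlap, in each list the 4 smallest p-values and 2 most abundant members, the 8 genes furthest apart between model libraries each way, and further list members. Of the 225 genes that rule chose without the further members, 111 of 162 that were called are given with values and 6 of 63 that were not, so named genes favour calls and were picked with their values seen. Cyp2a5 was added in the same way. Lists were described by counts and medians without a test. Intervals and floors of 3 counts cover counting error only. Coding sequences came from GENCODE vM21 (GRCm38) and promoters from RefSeq (GRCm38.p6).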

Additional observations from a re-analysis of the deposited data

How the results depend on the processing

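The number of calls (2582) was 1331 with a filter of at least 5 FPKM (894 rises, 437 falls), 5448 with limma on log2(TPM + 1) (5313 rises, 135 falls) and 1669 with only the 2 groups fitted (325 falls). Falls numbered 455 with totals without Alb and Mup genes, 225 with limma on log2(FPKM + 1) and 219 on log2(FPKM + 0.1). Leaving out 1 library gave between 812 and 2845 calls, 638 to 1823 rises and 174 to 1022 falls, and of the 162 calls among the genes the naming rule chose, leaving out 1 library left between 102 (control replicate 2) and 158. DESeq2 called 2477 of the 2582 genes. No call was reversed in the count-based alternatives, while limma reversed 1 call on each FPKM scale and 117 on log2(TPM + 1), none of them a gene named with values. With the replicate number as a block, 2682 genes were called among them 2402 of the 2582. Deviations of same-numbered libraries correlated at 0.204 between control and model and between −0.143 and 0.255 over all pairs of groups, and the labels do not say that numbers mark shared animals. Among genes that did not pass, Cps1 was 0.12 with limma on either FPKM scale, 0.45 on log2(TPM + 1) and, with 1 library left out, between −0.30 and 0.02. Hnf4a was 0.22 on log2(TPM + 1), Fgf21 ran from −0.39 (without model replicate 1) to 3.39, and Alb from −0.15 (without model replicate 2) to 0.67. The share of the transcriptome that changed hands was 39.5% in FPKM. Of the 24 theme lists 16 had a median above that of all genes. On log2 CPM, 743 genes were at least 2-fold apart between model libraries, against 396 between control libraries. At a threshold of 5 FPKM 649 genes were in the model-only class. With 2 animals a group, small changes could not be resolved, and the causes of these shifts were not tested.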
